A study of Mus musculus with 40 samples.

Results

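The effect of a miR-378a transgene on Ago2-bound RNA was compared between mouse hearts with and without pressure overload. The measure was the difference of 2 differences, TG minus ntg in constricted hearts less TG minus ntg in sham hearts, and is called the interaction. All 20 libraries of RNA bound by immunoprecipitated Ago2 (RISC libraries) entered it, of 40 libraries in the series. The other 20 libraries hold the polyadenylated RNA (mRNA) of the same hearts. All mice were of the FVB/N strain and are labelled as male. Their labels give an age of 12 weeks, and the design text a range of ages up to that. There were 3 non-transgenic (ntg) and 3 transgenic (TG) hearts labelled as sham, and 7 ntg and 7 TG hearts after 2 weeks of transverse aortic constriction (TAC). In the authors' combined count tables the column names mark the sham hearts as having had no surgery, so whether they were operated on is not settled, and sham is used here as a label. TG hearts overexpressed miR-378a. The promoter that drives the transgene, and whether the mice came from more than 1 founder line, are not given in the sources used here. The RNA came from coronal sections without the right ventricle, a mixture of cell types.

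Ago2 is the Argonaute protein that holds a microRNA and, guided by its seed, binds messages and lowers their translation or stability. The RNA recovered with Ago2 depends both on how much of a message is present and on how much of it is held by the complex, so the mRNA of the same heart is the natural companion measurement. The microRNA miR-378a lies in an intron of a gene for a PGC-1 coactivator, is abundant in heart muscle, and is known for acting on growth factor signalling and on energy metabolism. TAC narrows the aorta, which loads the left ventricle and leads to hypertrophy, during which heart muscle is known to lower many genes of oxidative metabolism.

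The 5 rows for reads of no gene, the ribosomal RNA precursor Rn45s and genes outside the 19 autosomes were removed before scaling. Rn45s took 48.5% to 62.3% of RISC counts, and 3.43 to 10.5 M counts per library remained. The ntg TAC libraries of replicates 5 and 6 were the shallowest, at 3.97 and 3.43 M. Xist, the RNA of the silenced X chromosome of female cells, stood at 4.17 to 33.0 CPM (counts scaled to library size) in sham and at 0 to 19.5 CPM in TAC libraries. RNA of 4 Y-linked genes stood at 0.373 to 3.29 CPM in sham and at 94.1 to 146 CPM in TAC libraries, in both genotypes. Sham hearts therefore went against their label, and any difference between TAC and sham hearts can also be one of sex. A transgene effect that depends on the operation and one that depends on sex cannot be told apart. The gene of the miR-378 precursor held 0 counts in every library, so the transgene product was not checked. All 10 heart muscle markers examined passed the filter on low counts, and none was at 0 in any library.

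Markers of fat cells and atrial muscle differed between libraries of the same group. The summed level of 12 adipocyte genes was 485 to 756 CPM in the ntg and 311 to 359 CPM in the TG sham hearts, and 315 to 441 CPM in the ntg and 270.1 to 651 CPM in the TG TAC hearts. The 2 highest TG TAC libraries were replicates 7 and 3, at 651 and 639 CPM, and the next stood at 368 CPM. Dgat2 and Pnpla2 had the highest counts of the list, up to 2264 and 2157 in a RISC library, against up to 83 for Adipoq. By mean log2 CPM of the 12 genes the sham groups nearly met, at 2.43, 4.48 and 3.36 in ntg and 2.06, 1.89 and 2.43 in TG libraries. Summed over 8 atrial genes, levels were 1304 to 2943 CPM in the ntg and 1439 to 1549 CPM in the TG sham hearts, and 698 to 1803 CPM in the ntg and 872 to 3272 CPM in the TG TAC hearts, where replicates 3 and 7 were again highest. In both lists every member tested had an interaction above 0 (12 of 12 and 8 of 8). The medians were 2.82 and 0.89 on the log2 scale, against -0.02 for all genes. None was called, where 0.333% of all genes were. The medians in mRNA were 2.63 and 1.63. Among the adipocyte genes, Ucp1 was at 0 in 9 libraries, Retn in 4 and Adrb3 in 2. Whether these cells take part in the results below was not tested beyond 2 kinds of fit, which were chosen after seeing the data. TG TAC replicates 3 and 7 were left out, or the mean log2 CPM of a list was taken as a covariate. That mean, and not the sum, is the adipocyte or atrial level of the covariate fits. Fewer cells of a type and less RNA per cell cannot be told apart in these tissue samples.

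Of 12923 genes tested, 43 were called for the interaction in Ago2-bound RNA at an adjusted p below 0.05 (edgeR, quasi-likelihood test, adjusted after Benjamini and Hochberg), which is 0.333%. In 40 of them (0.31%) the transgene effect was higher in TAC than in sham hearts, and in 3 (0.0232%) it was lower. An unadjusted p below 0.05 was reached by 1321 genes. The 40 higher genes held 8 subunits of the respiratory chain and ATP synthase, 3 ribosomal proteins, the copper chaperone Cox17, 3 genes of adult contraction and calcium handling, and, among long transcripts, the lipid droplet protein Plin4 and the adenosine receptor Adora1. Their exons summed to a median of 1081.5 bases, against 2973 bases for all genes tested. The spread between hearts corresponded to a biological coefficient of variation of 16.5%.

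Most calls were lost without at least 1 of the libraries. Cox17, Plin4, Id1 and Ndufa12 were called in each of the 20 fits that left out 1 library, and the other 39 genes lost their call at least without TG sham replicate 2, where only these 4 were called. Counts were also more than 1.5 times lower without TG sham replicate 3 (9 called), ntg sham replicate 3 (15), ntg TAC replicate 6, TG TAC replicate 1, TG TAC replicate 3 (24 each) and TG TAC replicate 7 (27). Without TG TAC replicates 3 and 7 together 14 were called, all of them among the 43, with Cox17, Plin4, Id1, Ndufa12, Ndufc1, Uqcrfs1, Rpl8, Lrrc10, Spsb1, Zfp36l2, Herpud1, D8Ertd738e and 9130019P16Rik among them. With the adipocyte level as a covariate 20 were called, 17 of them among the 43, and with the atrial level 28, of which 27 were among the 43. No interaction of the 43 changed sign in any of these fits.

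The 4 simple comparisons behind the interaction share its libraries, so their values are given side by side and not as separate evidence. In sham hearts TG minus ntg was below 0 for all 40 higher genes, with a median of -0.76, and 28 were called lower (3.01% of all genes were). In TAC hearts it was above 0 for 36, with a median of 0.34. There, 22 were called higher (7.51% of all genes), and 2, Plin4 among them, were called lower (7.99% of all genes). The 40 genes fell mainly in 3 patterns. Called lower with the transgene in sham and higher in TAC were 10 genes, Cox17 among them. Called lower in sham and not called in TAC were 16, and called higher in TAC and not called in sham were 12. TAC minus sham was called lower for 30 of the 40 in ntg hearts (5.11% of all genes were) and higher for 24 in TG hearts (4.54% of all genes). Both of these calls were made for 14 genes. Operation and sex cannot be told apart in them. The ranges of the 3 ntg and 3 TG sham libraries did not overlap for 31 of the 40, where 25.6% of all genes showed this. The ranges of the 7 and 7 TAC libraries did not overlap for 7 of the 40, where 3.94% of all genes did.

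**Figure D1:**
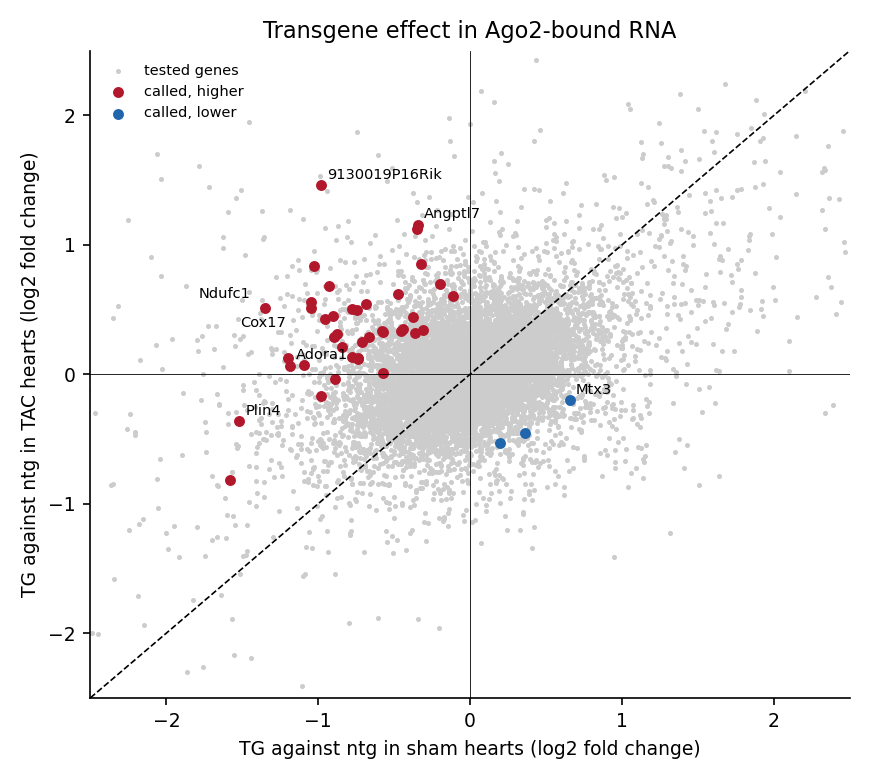
Transgene effect in Ago2-bound RNA in TAC hearts (vertical axis) against sham hearts (horizontal axis), both as log2 fold change of TG over ntg, for 12923 genes (grey), the 40 genes called higher (red) and the 3 called lower (blue); points beyond 2.5 are outside the frame. The dashed line marks equal effects, and all red points lie left of 0 on the horizontal axis, 36 of them above 0 on the vertical axis.

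Cox17, the chaperone that carries copper to cytochrome c oxidase in the mitochondrial intermembrane space, had the smallest p of all genes tested. On mm10 it lies at chromosome 16, 38346999 to 38352763, plus strand, and its exons sum to 436 bases. In sham hearts it stood at 37.8, 52.4 and 38.9 CPM in ntg and at 26.1, 20.2 and 16.4 CPM in TG libraries. In TAC hearts it ranged from 18.7 to 24.9 (median 21.3) CPM in ntg and from 26.3 to 36.0 (median 29.8) CPM in TG libraries. TG libraries were thus the lower ones in sham and the higher ones in TAC, and in neither condition did the genotypes overlap. TG minus ntg was -1.04 (SE 0.17, adjusted p 0.000166) in sham, against 0.51 (SE 0.12, adjusted p 0.0023) in TAC hearts, and the interaction was 1.55 (SE 0.21, adjusted p 0.000116). TAC minus sham was -0.97 (SE 0.14) in ntg and 0.58 (SE 0.15) in TG hearts. The call held in all 20 fits that left out 1 library and in every other alternative run, with a lowest interaction of 0.97.

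Among 18 genes tested for copper delivery and cytochrome oxidase assembly, Cox17 and Mt1 were called higher and none lower. Of them, 14 were above 0, and the median was 0.23 against -0.02 for all genes. Over all 12923 genes, 6210 were above 0 and 0.31% were called higher. The list's median exonic length was 1120 bases. Of all genes from 1000 to under 2000 bases 57.5% were above 0, with a median of 0.07 and 0.294% called higher. Mt1, a metallothionein that binds zinc and copper (chromosome 8, 94179089 to 94180327, plus strand, 542 bases), stood at 182, 139 and 272 CPM in the ntg and 126, 125 and 105 CPM in the TG sham hearts. In TAC it ranged from 80.2 to 117 CPM in ntg and from 103 to 127 CPM in TG libraries, so that the genotypes overlapped in TAC only. Its interaction was 0.86 (SE 0.19, adjusted p 0.0373), and the call was lost without ntg sham replicate 3, any TG sham replicate, ntg TAC replicate 6 or TG TAC replicates 1 or 3. Mt2 and Coa6, at 1.03 and 1.23, did not pass (adjusted p 0.49 and 0.65). Sco1, which takes copper from Cox17, had an interaction of -0.44 (adjusted p 0.64) and the copper importer Slc31a1 one of -0.24 (adjusted p 0.72). The genes whose log2 CPM followed Cox17 most closely over the 20 libraries, out of 9799 compared, were Rpl27a (Pearson r 0.90), Rplp2 (0.85), Uqcrq (0.84), Rpl8 (0.83) and Gpx4 (0.83). The libraries behind these correlations share group differences and differences in short transcripts, so the values are a description.

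**Figure D2:**
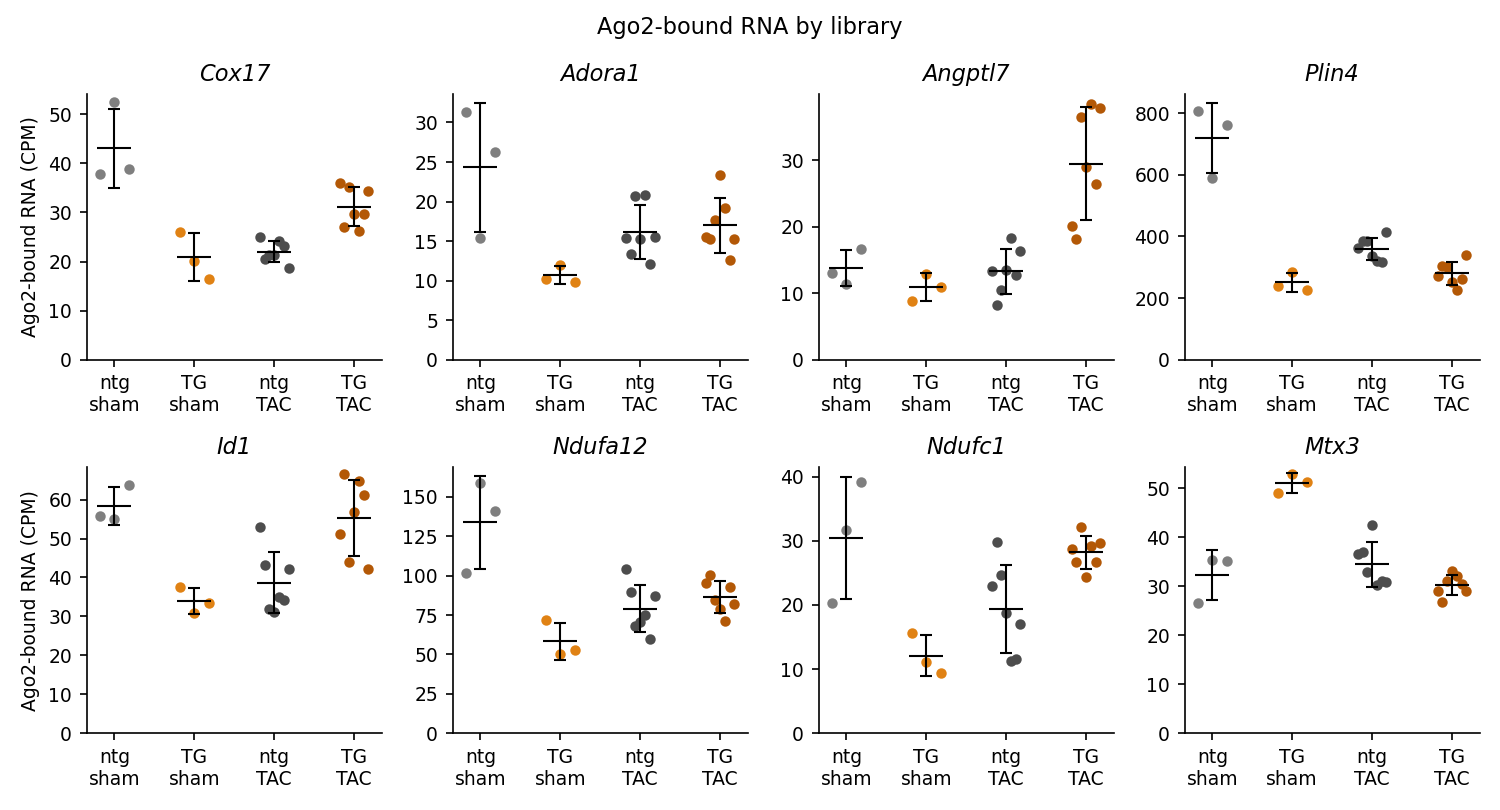
Ago2-bound RNA in CPM (vertical axes, from 0) for 8 genes in each of 3 ntg and 3 TG sham and 7 ntg and 7 TG TAC libraries; each point is a library, the horizontal line the mean and the bar 1 SD. Cox17 is low in TG among sham and low in ntg among TAC libraries, Plin4 is highest in ntg sham, Angptl7 is high in TG TAC, and Mtx3 is highest in TG sham.

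Subunits of respiratory complex I, which feeds electrons from NADH into the chain, were mostly above 0. Of 34 tested, 29 were above 0 with a median of 0.50, 3 were called higher and none lower. Of all 12923 genes, 6210 were above 0 and 0.31% were called higher. The list's median exonic length was 666 bases, and of all genes from 500 to under 1000 bases 79.2% were above 0, with a median of 0.35 and 2.31% called higher. Ndufa12 (chromosome 10, 94199009 to 94220948, plus strand, 561 bases) stood at 101, 159 and 141 CPM in the ntg and 71.9, 50.3 and 52.6 CPM in the TG sham hearts, where the genotypes did not overlap. In TAC it ranged from 59.7 to 104 (median 74.9) CPM in ntg and from 71.0 to 101 (median 84.6) CPM in TG libraries, which overlapped. Its interaction was 1.33 (SE 0.21, adjusted p 0.00197), called in all 20 omissions of a library. Ndufc1 (chromosome 3, 51405479 to 51408955, minus strand, 414 bases) had an interaction of 1.86 (SE 0.32, adjusted p 0.00682). It stood at 20.4, 31.7 and 39.2 CPM in the ntg and 15.6, 11.1 and 9.41 CPM in the TG sham hearts, and 11.2 to 29.8 (median 18.7) CPM in the ntg and 24.3 to 32.1 (median 28.7) CPM in the TG TAC hearts. The genotypes overlapped in TAC and not in sham. Ndufs7 (chromosome 10, 80249452 to 80256792, plus strand, 758 bases), which holds an iron-sulphur cluster of the complex, had an interaction of 0.68 (SE 0.16, adjusted p 0.0382), and sham groups that overlapped. Ndufs6 and Ndufa6, at 1.22 and 1.12, did not pass (adjusted p 0.0827 and 0.0789), and the lowest member, Ndufa10, stood at -0.22.

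Of 41 subunits of complexes II to V tested, which carry electrons on to oxygen and make ATP, 37 were above 0 with a median of 0.46, 5 were called higher and none lower. Their median length was 679 bases, in the same length class as complex I, where 79.2% of all genes were above 0 and 2.31% were called higher. Atp5g3 (chromosome 2, 73908450 to 73911294, minus strand, 679 bases), a gene of the membrane ring of ATP synthase, stood at 263, 355 and 383 CPM in the ntg and 309, 215 and 198 CPM in the TG sham hearts. It ranged from 189 to 336 (median 222) CPM in ntg TAC and from 323 to 401 (median 359.5) CPM in TG TAC. Its sham groups overlapped, and the highest ntg TAC library, replicate 1, lay within the range of TG TAC. The interaction was 1.09 (SE 0.21, adjusted p 0.0202). Cox4i1 (chromosome 8, 120668290 to 120674209, plus strand, 679 bases), a nuclear subunit of cytochrome c oxidase, had an interaction of 0.79 (SE 0.17, adjusted p 0.0325) and means of 301 ± 32.9, 219.6 ± 14.7, 182 ± 18.5 and 231 ± 42.7 CPM (SD, n = 3, 3, 7 and 7) in sham (ntg, then TG) and TAC hearts (ntg, then TG). For Uqcrfs1 (chromosome 13, 30540312 to 30545316, minus strand, 1313 bases), the Rieske iron-sulphur protein of complex III, it was 0.66 (SE 0.14, adjusted p 0.0325), with means in the same order of 139 ± 12.7, 112 ± 8.78, 102 ± 11.4 and 129.8 ± 9.47 CPM. These 2 genes had their highest mean in ntg sham and their lowest in ntg TAC.

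A further 2 called subunits, with Coq7 and Mpst, lie outside the naming rule and were chosen after their values were seen. The interaction was 0.86 (adjusted p 0.0409) for Cox6a2, the muscle form of a cytochrome oxidase subunit (659 bases), and 0.72 (adjusted p 0.0402) for Atp5d of the ATP synthase stalk (931 bases). Atp5d ranged from 96.3 to 149.6 CPM in ntg TAC and from 155 to 214 CPM in TG TAC, without overlap, while its sham groups overlapped. Coq7 (871 bases), an enzyme of ubiquinone synthesis, was at 0.82 (adjusted p 0.0495), and Mpst (1522 bases), a sulphurtransferase that makes hydrogen sulphide, at 1.17 (adjusted p 0.0382). Both ranged higher in TG TAC (26.7 to 32.5 and 12.0 to 17.6 CPM) than in ntg TAC (16.8 to 26.0 and 6.42 to 10.5 CPM), without overlap. Romo1 (chromosome 2, 156144153 to 156145794, plus strand, 630 bases), a small inner membrane protein that modulates reactive oxygen, is named by the rule and had an interaction of 1.60 (SE 0.32, adjusted p 0.0188). It stood at 15.3, 24.0 and 21.9 CPM in the ntg and 13.5, 9.06 and 7.20 CPM in the TG sham hearts, and 8.05 to 18.9 CPM in the ntg and 13.0 to 22.4 CPM in the TG TAC hearts. Other mitochondrial lists held no call, where 0.333% of all genes were called. Medians were 0.19 for 75 mitochondrial ribosomal proteins, 0.20 for 30 import and chaperone genes and 0.10 for 27 genes of fatty acid oxidation.

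Of 76 cytosolic ribosomal proteins tested, 74 were above 0 with a median of 0.58, 3 were called higher and none lower. Their median length was 729.5 bases, and the same length class of all genes had 79.2% above 0, a median of 0.35 and 2.31% called higher. Rplp2 (chromosome 7, 141447650 to 141451342, plus strand, 441 bases), an acidic protein of the ribosomal stalk, had the largest interaction of the 3, 1.86 (SE 0.35, adjusted p 0.0202). It stood at 23.1, 46.8 and 29.4 CPM in the ntg and 23.9, 13.3 and 11.5 CPM in the TG sham hearts, which overlapped. In TAC it ranged from 14.6 to 28.7 (median 19.4) CPM in ntg and from 25.2 to 49.0 (median 32.3) CPM in TG libraries, and the highest ntg TAC library, replicate 1, lay above the lowest TG TAC library. Rpl27a (chromosome 7, 109519195 to 109522369, plus strand, 1112 bases) and Rpl8 (chromosome 15, 76904071 to 76906318, plus strand, 862 bases), proteins of the large subunit, had interactions of 1.19 (SE 0.24, adjusted p 0.0202) and 0.96 (SE 0.19, adjusted p 0.0151). Rpl27a averaged 86.0 ± 24.1 CPM in ntg and 46.8 ± 13.7 in TG sham hearts, and 48.0 ± 5.42 in ntg and 59.6 ± 11.1 in TG TAC hearts (SD). Both genes had their highest value in ntg sham replicate 2, at 113 and 127 CPM, and lost the call without it. Ribosomal protein genes have processed pseudogenes of near-identical sequence that can share their reads, so these levels are uncertain.

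Promoters were read for the called genes, since most of them moved in one direction in Ago2-bound RNA. In mRNA the 40 higher genes did not share a direction, with a median interaction of -0.08 and 19 above 0. The 250 bases before each start were taken from RefSeq's table for GRCm38.p6. It held 31 of the 43 called genes and 9497 of the genes tested. Searched on both strands were 5 motifs: the cAMP response element TGACGTCA, the NRF1 site in its usual palindromic form, the ETS site CCGGAAGT, the E-box CACGTG and the GC box GGGCGG. None of these contains another. The cAMP response element was found in 3 of the 31 (9.68%) and in 2.69% of all 9497, the NRF1 site in 3.23% and 8.04%, the ETS site in 6.45% and 5.85%, the E-box in 12.9% and 8.59%, and the GC box in 41.9% and 60.1%. The 3 promoters with a cAMP response element, the least common of the 5 motifs over all 9497 promoters, are shown around the element, which is in capitals, on the strand of the gene.
Maff (chr15:79347431-79347519, plus strand): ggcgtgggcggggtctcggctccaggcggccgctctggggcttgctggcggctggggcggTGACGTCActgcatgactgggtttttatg
Rpl27a (chr7:109519038-109519165, plus strand): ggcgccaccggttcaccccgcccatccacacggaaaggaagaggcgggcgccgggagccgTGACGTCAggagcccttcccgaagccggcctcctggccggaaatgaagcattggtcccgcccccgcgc
Uqcrfs1 (chr13:30545317-30545405, minus strand): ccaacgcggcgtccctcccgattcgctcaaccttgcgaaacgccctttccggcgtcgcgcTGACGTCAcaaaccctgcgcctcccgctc
The element begins 29 bases before the start in Maff and Uqcrfs1 and 97 bases before it in Rpl27a. The matches are a description of the letters in these windows.

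Genes of contraction were called one by one rather than as a group. Of 24 in the list of adult contraction and calcium handling, 17 were above 0 with a median of 0.10, 3 were called higher and none lower. Over all 12923 genes, 6210 were above 0 and 0.31% were called higher. Tnni3 and Tnnc1 are short, and of all genes from 500 to under 1000 bases 79.2% were above 0 and 2.31% were called higher. Tnni3, cardiac troponin I (chromosome 7, 4518308 to 4522443, minus strand, 824 bases), stood at 1237, 1529 and 1203 CPM in the ntg and 1101, 934 and 889 CPM in the TG sham hearts. It ranged from 718 to 858 (median 773) CPM in ntg TAC and from 752 to 1164 (median 1016) CPM in TG TAC. TAC minus sham was -0.79 (SE 0.11, adjusted p 1.23e-05) in ntg hearts, while the value in TG hearts was 0.00 (SE 0.11), and the interaction was 0.79 (SE 0.16, adjusted p 0.0202). Tnnc1, troponin C of heart and slow muscle (chromosome 14, 31208312 to 31211711, plus strand, 703 bases), had an interaction of 0.58 (SE 0.13, adjusted p 0.0373). It was lower with the transgene in sham (503 to 579 against 751 to 951 CPM). In TAC hearts it ranged over 666 to 772 CPM in TG against 666 to 817 CPM in ntg, a difference of 0.01 (adjusted p 0.943). With each library's length slope as a covariate neither Tnni3 nor Tnnc1 was called (adjusted p 0.772 and 0.339). The same held with a length curve removed from each library (adjusted p 0.146 and 0.75).

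Lrrc10, a leucine-rich repeat protein of heart muscle, was chosen after its values were seen (chromosome 10, 117045341 to 117046768, plus strand, 1428 bases). It stood at 159, 150.3 and 209.7 CPM in the ntg and 96.1, 98.6 and 85.1 CPM in the TG sham hearts, and TAC libraries of both genotypes covered about the same range, 104 to 143 CPM in ntg and 106 to 149 CPM in TG. The interaction was 0.86 (SE 0.16, adjusted p 0.0119), and it was also called in mRNA, at 0.72 (SE 0.12, adjusted p 0.0186).

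Plin4, a perilipin that coats lipid droplets (chromosome 17, 56100591 to 56109802, minus strand, 5755 bases), had the second smallest p. It stood at 807, 590.3 and 761 CPM in the ntg and at 240.0, 286 and 226 CPM in the TG sham hearts. In TAC it ranged from 317 to 414 (median 362) CPM in ntg and from 228 to 341 (median 273) CPM in TG libraries. The 3 ntg sham libraries lay above all 17 others, and the genotypes overlapped slightly in TAC. Plin4 was lower in TG than in ntg hearts in both conditions. TG minus ntg was -1.52 (SE 0.14, adjusted p 1.24e-09) in sham, against -0.36 (SE 0.09, adjusted p 0.00467) in TAC. The interaction was 1.16 (SE 0.16, adjusted p 0.000127). Its mRNA behaved alike, with 476 to 593 CPM in the ntg and 175 to 204 CPM in the TG sham hearts, and 239 to 334 CPM in the ntg and 175 to 252 CPM in the TG TAC hearts, and a called interaction of 1.12 (SE 0.15, adjusted p 0.00182). The interaction in RISC less that in mRNA was 0.06 (SE 0.23). Plin4 was highest in ntg sham, which also held the library with the highest summed adipocyte level, replicate 2 at 756 CPM. That library had the lowest Plin4 of the 3 ntg sham libraries, 590.3 CPM. By mean log2 CPM of the adipocyte genes, TG TAC replicate 3 was highest, at 4.54. The call of Plin4 held without TG TAC replicates 3 and 7 (1.07, adjusted p 0.000332) and with the adipocyte level as a covariate (1.09, adjusted p 0.00148). It also held in every other alternative run.

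Adora1, the A1 adenosine receptor that slows the heart and lowers cyclic AMP (chromosome 1, 134199222 to 134235431, minus strand, 5786 bases), stood at 31.4, 15.4 and 26.3 CPM in the ntg and 10.2, 12.0 and 9.85 CPM in the TG sham hearts. In TAC it ranged from 12.1 to 20.8 (median 15.4) CPM in ntg and from 12.6 to 23.4 (median 15.5) CPM in TG libraries. In Ago2-bound RNA the genotypes differed in sham, at -1.19 (SE 0.23, adjusted p 0.00123), where the ranges did not overlap. TAC libraries of both genotypes lay together, at 0.07 (SE 0.15, adjusted p 0.817). TAC minus sham was -0.59 (adjusted p 0.038) in ntg hearts and 0.67 (adjusted p 0.0349) in TG hearts. The interaction was 1.26 (SE 0.28, adjusted p 0.0355). It was called in 12 of 20 fits that left out a library, and lost without ntg sham replicates 1 or 3, any of the 3 TG sham replicates, ntg TAC replicates 2 or 6 or TG TAC replicate 3 (adjusted p up to 0.14). Leaving out TG TAC replicates 3 and 7 together gave 1.27 (adjusted p 0.0565), the atrial level as a covariate 1.21 (adjusted p 0.0533) and the adipocyte level 1.35 (adjusted p 0.044). In mRNA the same groups stood at 23.4 to 31.7, 11.3 to 14.5, 17.3 to 27.1 and 12.5 to 20.6 CPM, and the interaction was 0.78 (SE 0.20, adjusted p 0.134). There TG minus ntg was called lower in sham (-1.15, SE 0.17, adjusted p 3.14e-05) and also in TAC (-0.37, SE 0.10, adjusted p 0.0119). Exons of Mybph on the opposite strand cover 11.4% of Adora1's exonic bases, and the libraries carry no strand. No other gene of 26 tested for adenosine, adrenergic and cyclic AMP signalling was called (0.333% of all genes were), and their median was -0.01. The next highest was the adenylyl cyclase Adcy5 at 0.34 (adjusted p 0.54), and the A2a receptor Adora2a stood at 0.25 (adjusted p 0.84).

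Angptl7, a secreted protein related to the angiopoietins (chromosome 4, 148495280 to 148500462, minus strand, 2062 bases), showed the other pattern. It stood at 13.1, 11.4 and 16.7 CPM in the ntg and 8.77, 12.9 and 11.0 CPM in the TG sham hearts, which overlapped. In TAC it ranged from 8.28 to 18.3 (median 13.4) CPM in ntg and from 18.1 to 38.5 (median 29.0) CPM in TG libraries. Of the 20 libraries, 6 of the 7 TG TAC libraries were the highest, and the lowest TG TAC library, replicate 2, lay just below the highest ntg TAC library, replicate 5. TG minus ntg was -0.34 (SE 0.28, adjusted p 0.558) in sham, against 1.16 (SE 0.18, adjusted p 3.09e-05) in TAC, and the interaction was 1.50 (SE 0.33, adjusted p 0.0355). Its mRNA gave 1.44 (SE 0.17, adjusted p 5.9e-06) for TG minus ntg in TAC and an interaction of 1.23 (SE 0.33, adjusted p 0.196). TG TAC replicates 3 and 7 stood at 36.4 and 37.8 CPM, inside the range of the other 5. Without them the interaction was 1.33 (adjusted p 0.0755), and with the adipocyte level as a covariate it was 1.22 (adjusted p 0.195), so the call was lost. With each library's length slope as a covariate the adjusted p was 0.169. It was called in 12 of 20 omissions of a library, and lost without ntg sham replicates 1 or 3, any TG sham replicate, ntg TAC replicates 3 or 6 or TG TAC replicate 3. Among 9 angiopoietin and angiopoietin-like genes tested, with a median of 0.91, no other was called (0.333% of all genes were). Angptl4, an inhibitor of lipoprotein lipase, had a value of 1.97 that did not pass (adjusted p 0.49), and the vascular growth factors Angpt1 and Angpt2 stood at -0.63 and 0.91 (adjusted p 0.48 and 0.56).

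Other called receptors, transporters and matrix genes were chosen after their values were seen. Interactions were 1.23 (adjusted p 0.022) for the prostaglandin E receptor Ptger1 (2082 bases), 0.91 (adjusted p 0.0409) for the fibroblast growth factor receptor Fgfr3 (4399 bases), 0.96 (adjusted p 0.0382) for the glutamine carrier Slc1a5 (2758 bases) and 1.17 (adjusted p 0.0202) for the matrix proteoglycan podocan (3168 bases). Podn differed between genotypes in sham (19.2 ± 3.08 CPM in TG against 41.0 ± 7.83 CPM in ntg, SD, n = 3 each) and ranged over 23.7 to 44.4 CPM in TG and 26.2 to 38.6 CPM in ntg TAC hearts, a difference of 0.08 (adjusted p 0.758). The Fgfr3 ranges in TAC met without overlap, at 16.3 to 24.5 CPM in ntg and 24.5 to 28.6 CPM in TG.

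Several called genes encode regulators of transcription and of the stress response. Id1, an inhibitor of basic helix-loop-helix factors (chromosome 2, 152736274 to 152737410, plus strand, 911 bases), stood at 55.8, 55.1 and 63.9 CPM in the ntg and 37.5, 30.8 and 33.5 CPM in the TG sham hearts. It ranged from 31.0 to 52.9 (median 35.1) CPM in ntg TAC and from 42.1 to 66.6 (median 56.9) CPM in TG TAC. The sham groups did not overlap and the TAC groups did, with TG lower in sham (-0.78 (adjusted p 0.00489)) and higher in TAC (0.51 (adjusted p 0.00245)). The interaction was 1.29 (SE 0.21, adjusted p 0.00197), called in all 20 omissions of a library, and the adjusted p was 0.0579 with a length curve removed from each library. Spsb1 (chromosome 4, 149896284 to 149955006, minus strand, 3054 bases), an adaptor of a ubiquitin ligase, had an interaction of 1.19 (SE 0.21, adjusted p 0.00682), with 35.4 to 66.4 CPM in the ntg and 26.6 to 31.1 CPM in the TG sham hearts, and 27.3 to 39.7 CPM in the ntg and 32.1 to 48.7 CPM in the TG TAC hearts. Chosen after their values were seen, the transcription factors Klf4 and Maff, whose promoter is shown above, had interactions of 0.90 (adjusted p 0.0409) and 1.35 (adjusted p 0.0451), and Zfp36l2, which binds AU-rich elements and promotes decay of messages, one of 0.91 (adjusted p 0.0202). For Zfp36l2, TAC minus sham was 1.20 (SE 0.14) in TG hearts and 0.29 (adjusted p 0.155) in ntg hearts. The iron store Fth1, at 0.90 (adjusted p 0.0409), had TAC ranges of 181 to 275 CPM in ntg and 247 to 431 CPM in TG. Herpud1, of protein quality control in the endoplasmic reticulum, was at 0.81 (adjusted p 0.0325), and Josd2, a deubiquitinase, at 1.05 (adjusted p 0.0373).

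A few called genes are little described. The interaction was 2.44 (SE 0.54, adjusted p 0.0355) for 9130019P16Rik (chromosome 6, 54269681 to 54430221, minus strand, 4486 bases), the largest of the called genes and at low levels, with 2.54, 4.49 and 7.84 CPM in the ntg and 3.74, 2.07 and 1.88 CPM in the TG sham hearts, and 0.254 to 3.97 CPM in the ntg and 3.70 to 7.67 CPM in the TG TAC hearts. Exons of Chn2 on the opposite strand cover 12.3% of its bases. D8Ertd738e (chromosome 8, 84246235 to 84249761, minus strand, 661 bases) had 1.61 (SE 0.30, adjusted p 0.00682), and 2810428I15Rik (chromosome 8, 70504296 to 70506739, minus strand, 657 bases) had 1.47 (SE 0.33, adjusted p 0.0355). For 2810428I15Rik the TAC libraries did not overlap, with 5.11 to 9.39 CPM in ntg and 12.7 to 17.9 CPM in TG. Grcc10 (567 bases) and Zfp865 (3958 bases), chosen after their values were seen, were at 1.24 (adjusted p 0.0409) and 1.38 (adjusted p 0.0355).

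All 3 genes with a lower interaction had exons above the median of 2973 bases. Mtx3, a metaxin of the outer mitochondrial membrane (chromosome 13, 92844787 to 92858230, plus strand, 6275 bases), stood at 26.5, 35.3 and 35.1 CPM in the ntg and 49.0, 52.9 and 51.2 CPM in the TG sham hearts, without overlap, and ranged from 30.2 to 42.6 (median 32.9) CPM in ntg TAC and from 26.8 to 33.1 (median 30.5) CPM in TG TAC. TG sham was the group that stood apart, and the interaction was -0.86 (SE 0.18, adjusted p 0.0202). Rasgrp3, an activator of Ras in endothelial and blood cells (chromosome 17, 75435905 to 75529053, plus strand, 4931 bases), had an interaction of -0.82 (SE 0.18, adjusted p 0.0285). It averaged 32.0 ± 2.06 CPM in ntg and 41.1 ± 2.34 in TG sham hearts, and 49.2 ± 6.07 in ntg and 35.7 ± 4.34 in TG TAC hearts (SD, n = 3, 3, 7 and 7). Bcl6b, a repressor of transcription related to Bcl6 (chromosome 11, 70224127 to 70229798, minus strand, 3426 bases), ranged from 60.7 to 77.1 (median 69.7) CPM in ntg TAC and from 39.7 to 53.2 (median 48.8) CPM in TG TAC, without overlap, and from 27.6 to 33.3 and 33.0 to 39.3 CPM in ntg and TG sham. It was higher in TAC than in sham hearts of both genotypes, by 1.16 (SE 0.12) in ntg and 0.43 (SE 0.12) in TG. The interaction was -0.72 (SE 0.16, adjusted p 0.0373). The summed level of 12 endothelial markers was 1407 to 1615 CPM in the ntg and 1426 to 1538 CPM in the TG sham hearts, and 1515 to 1769 CPM in the ntg and 1524 to 1663 CPM in the TG TAC hearts, and their median interaction was 0.00.

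Short transcripts made up a large share of the called genes. Exons summed to under 1000 bases in 19 of the 40 higher genes (47.5%) and in 6.38% of all genes tested. The median interaction over all genes of a length class fell from 0.67 under 500 bases (131 genes) to 0.35 from 500 to under 1000 bases, 0.07 from there to under 2000, -0.04 from there to under 4000 and -0.07 at 4000 bases or more. The share called higher was 2.29%, 2.31%, 0.294%, 0.152% and 0.122% in the same order. In mRNA the medians of the 2 short classes were 0.10 and 0.04. In Ago2-bound RNA, TG minus ntg in TAC had a median of 0.71 under 500 bases, and TG minus ntg in sham one of -0.13.

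The same was measured for each library as the slope of its log2 ratio to the mean of all 20 libraries on log2 exonic length, so that a negative slope means relatively more short transcripts. In TAC the slope ranged from 0.00237 to 0.151 (median 0.0694) in the 7 ntg libraries and from -0.117 to 0.00433 (median -0.0761) in the 7 TG libraries. Only ntg replicate 1 and TG replicate 4 came within the range of the other genotype. The means were 0.0791 ± 0.0467 and -0.0600 ± 0.0486 (SD), and their difference, -0.139, had p = 0.00117 (exact permutation test over 3432 arrangements, two-sided, smallest possible 0.000583). In sham the slopes were 0.0134, -0.0304 and -0.00495 in ntg and -0.0678, -0.0514 and 0.00782 in TG libraries, and the difference of -0.0298 had p = 0.3 (exact permutation test, two-sided, smallest possible 0.1). Transcripts under 1000 bases took 2.27% to 2.92% of counts in ntg TAC and 2.84% to 4.23% in TG TAC, and 2.62% to 3.11% in all 6 sham libraries. The mRNA libraries of the TAC hearts had slopes of 0.0141 ± 0.0465 in ntg and -0.00503 ± 0.0374 in TG (p = 0.399, exact permutation test, two-sided). TG TAC libraries were also deeper on average, at 8.09 against 6.35 M counts (p = 0.112, exact permutation test, two-sided), and the part of depth in the slopes was not tested. With all libraries thinned to the depth of the shallowest, 26 genes were called for the interaction, 23 of them among the 43.

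**Figure D3:**
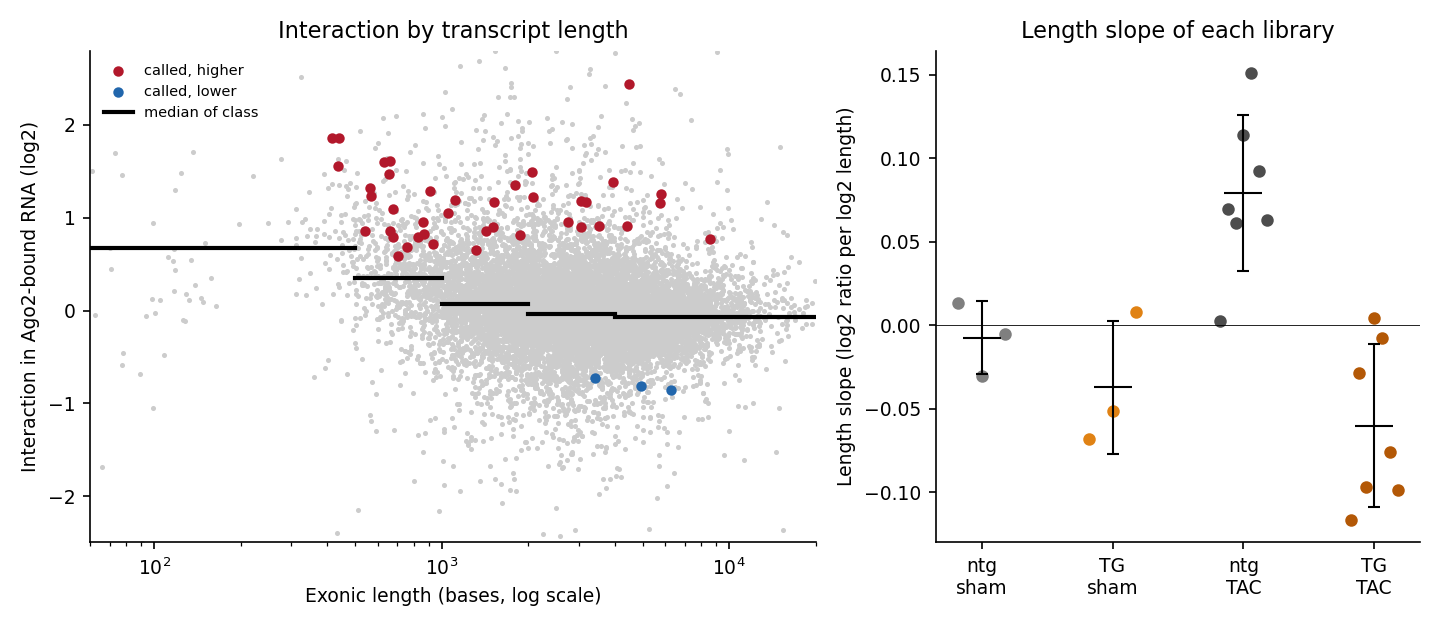
Left, the interaction in Ago2-bound RNA (log2, vertical axis) against exonic length in bases (log scale) for all genes tested, with black bars at the median of each of 5 length classes; right, the length slope of each of 20 libraries with the mean and 1 SD of its group. The medians fall from 0.67 to -0.07 with length, and TG TAC slopes lie mostly below 0 while ntg TAC slopes lie above it.

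Taking length into account left fewer calls. With each library's slope as a covariate, 8 genes were called, 7 of them among the 43, and these included Cox17, Plin4, Adora1, Id1, Spsb1 and Zfp36l2. Cox17, at 436 bases, kept an interaction of 1.25 (adjusted p 0.0196). With a smooth length curve removed from each library, 17 genes were called, all among the 43, and 6 genes were called both ways, since Id1 was not in the second set. The other 11, Rplp2, Rpl27a, Fth1, Lrrc10, Ptger1, Klf4, Podn, Zfp865, Fgfr3, 9130019P16Rik and Mtx3, were called after removal of the curve but not with the slope as a covariate. Among the 8 subunits of the respiratory chain and ATP synthase none was called either way, and their interactions after removal of the curve ranged from 0.33 (Ndufs7, adjusted p 0.411) to 1.28 (Ndufc1, adjusted p 0.0715). With genes under 1000 bases left out before scaling, 21 were called. The 19 higher genes under 1000 bases could not be called in that fit, so most of the drop from 43 was fixed in advance.

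The interaction was then set beside that in the mRNA of the same hearts. In mRNA 12 of 13670 genes were called (0.0878%), 10 higher (0.0732%) and 2 lower (0.0146%). Plin4 and Lrrc10 were called in both kinds of library. Over the 40 genes higher in RISC the mRNA interaction had a median of -0.08 and was above 0 for 19. Close to the RISC value were, for example, Plin4, Angptl7, Lrrc10, Herpud1, Fgfr3, Mt1 and Slc1a5, with mRNA interactions of 1.12, 1.23, 0.72, 0.73, 0.84, 0.72 and 0.79. The mRNA interaction was below 0 for Rplp2, Ndufc1, Ndufa12, Romo1, Rpl27a and Atp5g3, at -0.62, -0.27, -0.72, -0.54, -0.52 and -0.44, with none called. The SEs of these values were wide, at 0.56, 0.45, 0.50, 0.42, 0.24 and 0.40 in the same order. Cox17 mRNA stood at 339 ± 39.1, 309 ± 39.4, 286 ± 67.6 and 280.5 ± 60.7 CPM (SD) in sham (ntg, then TG) and TAC hearts (ntg, then TG), with an interaction of 0.11 (SE 0.28, adjusted p 0.94).

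The difference between the kinds of library was tested in 1 model of all 40 libraries. Without the heart as a block, 2 of 13758 genes were called (0.0145%), Ptger1 at 1.89 (SE 0.36, adjusted p 0.0406) and Gm13889 at 2.13 (SE 0.42, adjusted p 0.0406). With the heart as a block, which pairs the RISC and mRNA library of an animal, 26 were called (0.189%), 25 higher (0.182%) and 1 lower (0.00727%). Of the 40 genes, 8 were among them: Cox17, D8Ertd738e, Rpl8, Rpl27a, Ptger1, Mpst, Ndufs7 and Grcc10. For Cox17 the interaction in RISC less that in mRNA was 1.47 (SE 0.35, adjusted p 0.165) without and 1.46 (SE 0.29, adjusted p 0.035) with the block. The 40 genes were chosen on their RISC values, so their direction here is not independent. For Adora1 and Angptl7 the difference was 0.44 (SE 0.28, adjusted p 0.718) and 0.21 (SE 0.46, adjusted p 0.938) with the block, and did not pass.

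**Figure D4:**
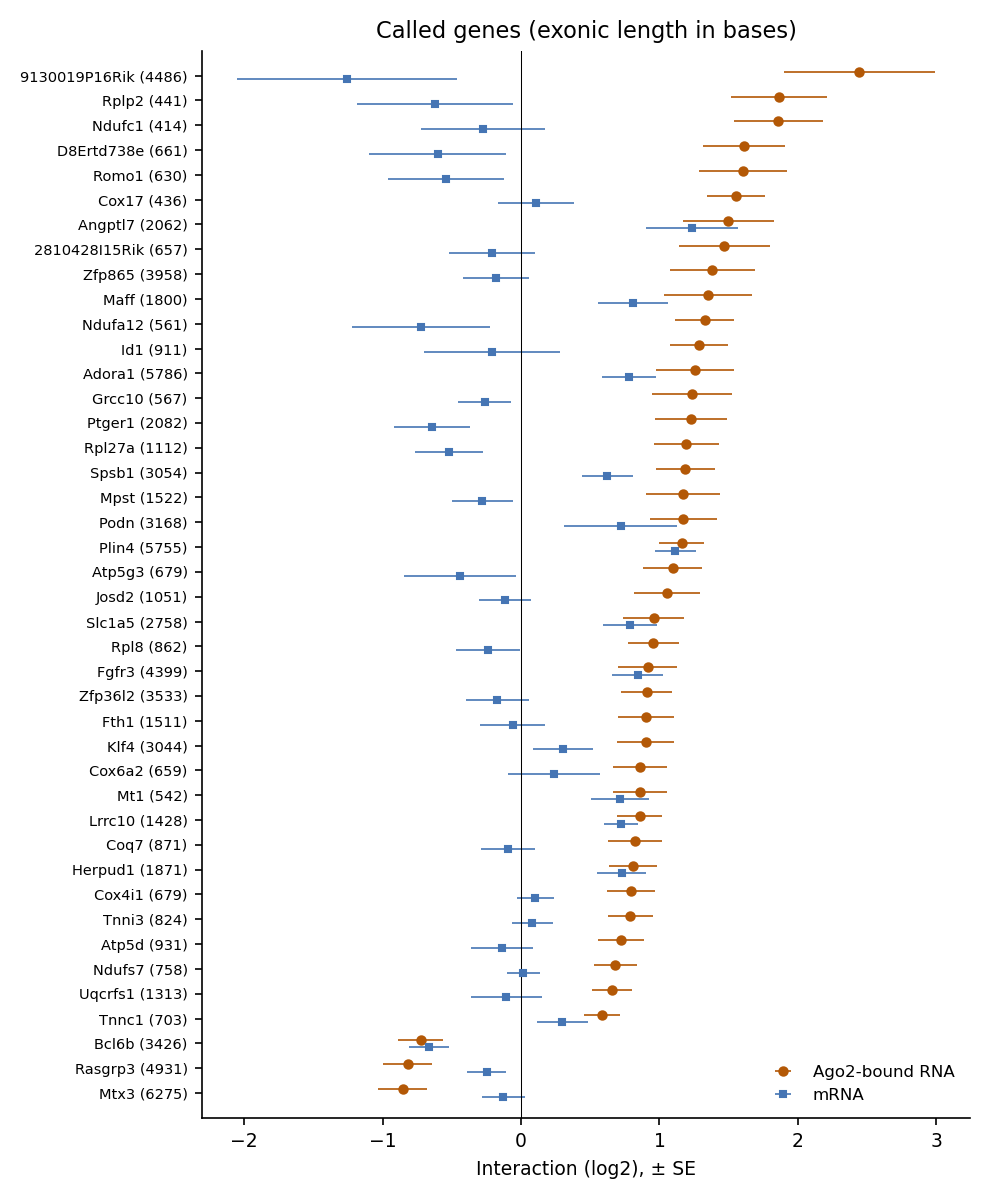
The interaction (log2, horizontal axis) in Ago2-bound RNA (orange circles) and in mRNA (blue squares) of 42 of the 43 called genes, with exonic length in bases beside each name; bars are 1 SE. The 2 values lie close for Plin4, Lrrc10, Angptl7 and Bcl6b, and apart for Cox17, the respiratory subunits and the ribosomal proteins. In the test of the difference with the heart as a block, Cox17, Ndufs7, Rpl8 and Rpl27a passed among these. The other respiratory subunits and Rplp2 did not.

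Genes often followed in these settings held no call for the interaction. Of all 12923 genes 0.333% were called, and at that share most lists of this size would hold none. Of 10 reported targets of miR-378, none was called and the median was 0.03, with Igf1r at 0.30 and Grb2, the adaptor between growth factor receptors and Ras, at 0.03 (adjusted p 0.55 and 0.97). Of 20 genes of the overload response none was called and the median was -0.09, with Nppa at 1.07 (adjusted p 0.57) and Nppb at 0.26 (adjusted p 0.86). The 16 Argonaute and microRNA processing genes had a median of -0.05, and Eif2c2, which encodes Ago2, stood at 0.07 (adjusted p 0.92). No call was made among 19 glycolysis genes (median 0.06), 36 proteasome subunits (-0.05), 17 interferon response genes (-0.33), 32 histones (0.40) and 39 small nucleolar RNAs (0.27). Among markers of other cells, medians were -0.10 for 10 fibroblast, 0.16 for 10 smooth muscle and pericyte, 0.19 for 17 macrophage and 0.45 for 7 nerve and glia genes tested, with no call. Only 1 lymphocyte marker (Cd4, -0.14) and 1 erythrocyte marker (Slc4a1, -0.58) could be tested, and the hemoglobin genes were at 0 counts in all 20 libraries. In the cardiomyocyte list Tnni3 was called and the median of 10 was 0.16.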

How the data were processed

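The authors deposited a table of raw counts per gene for each of 40 libraries, made by HTSeq from reads aligned with TopHat2 2.0.10 to mm10, per the submitters' processing notes. The libraries were single-end and not strand-specific, per the labels' protocols. The 5 rows of reads assigned to no gene (mean 4.09% of RISC reads), Rn45s and 1090 genes outside the autosomes of the deposited gene models were removed, which left 22329 of 23420 genes. Exonic length is the union of a gene's exons in those models.

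Counts were tested with edgeR 4.0.16 in R 4.3.3 (TMM factors, filterByExpr, robust quasi-likelihood test, Benjamini-Hochberg adjustment over all genes, threshold 0.05). The 4 groups shared 1 estimate of the spread, and each library was a heart of its own. CPM values use TMM-scaled library sizes, except those of Xist and the Y-linked genes, which use the total of all genes without Rn45s. In mRNA the same fit was used, and RISC and mRNA were compared in 1 model of 40 libraries. RISC and mRNA libraries of a heart carry the same animal code, and their deviations from group means correlated by over 0.1 in 17 of 20 hearts (median 0.16), so the fit with heart as a block is given beside that without. The fits were tested on simulated data.

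Named genes were Cox17, Adora1 and Angptl7, called genes at 1 CPM or more with the 8 largest folds and 5 smallest p in each direction, and up to 3 called members of each of 28 gene lists. The members and lists were chosen with earlier results of these data known. Total counts per RISC library were 7.55 to 25.4 M, which limits precision for low genes.

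Alternatives were DESeq2 1.42.0, limma 3.58.1 (voom), other scaling and filters, a replicate block, length covariates and offsets, thinning, and leaving out each library. Of the called genes, 1 is not reported here. Sequences are from RefSeq (GRCm38.p6).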

Additional observations from a re-analysis of the deposited data

Results flagged for a closer look

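The transgene effect differed between sham and TAC hearts, by the test of the interaction itself, for 43 genes. Those described in the report had log2 interactions of 2.44 for 9130019P16Rik, 1.86 for Rplp2, 1.86 for Ndufc1, 1.61 for D8Ertd738e, 1.60 for Romo1, 1.55 for Cox17, 1.50 for Angptl7, 1.47 for 2810428I15Rik, 1.38 for Zfp865, 1.35 for Maff, 1.33 for Ndufa12, 1.29 for Id1, 1.26 for Adora1, 1.24 for Grcc10, 1.23 for Ptger1, 1.19 for Rpl27a, 1.19 for Spsb1, 1.17 for Mpst, 1.17 for Podn, 1.16 for Plin4, 1.09 for Atp5g3 and 1.05 for Josd2. Below 1 on this scale were 0.96 for Slc1a5, 0.96 for Rpl8, 0.91 for Fgfr3, 0.91 for Zfp36l2, 0.90 for Fth1, 0.90 for Klf4, 0.86 for Cox6a2, 0.86 for Mt1, 0.86 for Lrrc10, 0.82 for Coq7, 0.81 for Herpud1, 0.79 for Cox4i1, 0.79 for Tnni3, 0.72 for Atp5d, 0.68 for Ndufs7, 0.66 for Uqcrfs1 and 0.58 for Tnnc1. The 3 negative values were -0.86 for Mtx3, -0.82 for Rasgrp3 and -0.72 for Bcl6b.

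In 4 of 90 groups of 7 TAC libraries examined, 1 library stood apart from the rest by Dixon's test, where chance gives about 1 in 20. Rpl8 stood at 90.6 CPM in ntg TAC replicate 1, above the next library at 71.2 CPM. Josd2 stood at 10.1 CPM in ntg TAC replicate 6, below the next at 17.9 CPM. Maff stood at 9.14 CPM in ntg TAC replicate 5, above the next at 6.77 CPM. Ptger1 stood at 13.5 CPM in TG TAC replicate 6, below the next at 17.8 CPM.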

How the results depend on the processing

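Against 43 genes called for the interaction in Ago2-bound RNA, DESeq2 called 123, the fit with a replicate block 79 (40 of the 43 among them), thinned counts 26, genes of 1000 bases or more 21, length curve offsets 17, library totals without TMM factors 12 and the length slope as a covariate 8. The fit of genes of 1000 bases or more could not call the 19 higher genes that are shorter. With library totals the median interaction of all genes shifted to -0.11. Among alternatives chosen after seeing the data, 28 were called with the atrial level as a covariate, 20 with the adipocyte level and 14 without TG TAC replicates 3 and 7. Leaving out 1 library gave 4 to 56 calls. Counts with other factors, no filter, voom, Rn45s or all chromosomes kept, or both shallowest libraries left out lay between 35 and 62. All 43 interactions kept their sign in every alternative run, up to 36 per gene. The cause of these differences was not tested. For the interaction in RISC less mRNA, 2 genes were called, 26 with heart as a replicate block and 0 without a filter on low counts (edgeR; 1075 genes had an unadjusted p below 0.05 with the filter), and 12 in mRNA became 9 with the block. Same-numbered ntg and TG hearts share only a number: correlations of their deviations exceeded 0.1 in 0 of 3 sham and 3 of 7 TAC pairs, and 3 of 7 ntg TAC hearts correlated best with their own number. The difference in length slope in TAC, -0.139, ranged from -0.152 to -0.127 without 1 library. The 3 sham hearts a genotype and 3.43 M counts in the shallowest library limit the precision of low genes.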
